A study of Mus musculus with 11 samples.

Results

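Cwc22 and 8 genes of the exon junction complex and its surveillance partners were followed in J-RGCs, retinal ganglion cells that respond to a preferred direction of motion, from control (WT) and Tbr1 knockout (KO) mice. The 9 genes, Cwc22, Eif4a3, Magoh, Magohb, Rbm8a, Casc3, Upf1, Upf2 and Upf3b, were chosen by symbol among 24421 genes, and all 9 passed the filter on low counts that left 13957 genes for testing. Cwc22 was listed because its counts differed between the genotypes, so its levels are a description and carry no test. The other 8 genes were listed for their function.

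Cells of both genotypes carried a green fluorescent reporter from a transgenic line that marks J-RGCs, and came from retinas of mice on a mixed C57BL/6 and CD1 background at postnatal day 4 to 5. The KO animals are labelled as knockouts of the transcription factor gene Tbr1. The labels name neither the allele, nor any Cre driver, nor the reporter line. Flow sorting gave 11 pools of 100 cells, each sequenced as 1 library. Control animals a, c and d gave 1 library each (libraries 1, 4 and 5) and control animal b gave libraries 2 and 3. KO animals a and b gave libraries 1 and 2 and libraries 3 and 4, and KO animals c and d gave libraries 5 and 6. Libraries of 1 animal were summed, so that each comparison set 4 animals against 4.

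When introns are removed, the spliceosome leaves a protein complex just upstream of each new exon-exon junction. The core of this exon junction complex is the RNA helicase EIF4A3 clamped on the RNA by RBM8A and MAGOH or its paralogue MAGOHB, and CASC3 joins it later. CWC22 is the spliceosome component that binds EIF4A3 and brings it to the splicing machinery. In nonsense-mediated decay (NMD), UPF3B and UPF2 connect a junction complex left downstream of a stop codon to the helicase UPF1, which marks the transcript for degradation. Mouse Cwc22 is also known for differing in copy number between strains.

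The annotation shows why reads of Cwc22 need care. Cwc22 lies on the minus strand of GRCm38 chromosome 2, at chr2:77881159-77946375, and its main annotated transcript has 21 exons and a coding sequence of 2727 bases. On the same chromosome, 6.01 to 6.04 Mb beyond it, GENCODE M21 lists 7 Cwc22-like genes, Gm13691 and Gm13693 to Gm13698, spaced 5810 bases apart between 83955693 and 83993045. The longest transcript of each is a single exon of 2493 bases, and 6 of the 7 also have a shorter transcript of 2 exons. The single-exon form aligned to the Cwc22 coding sequence over 2474 bases with 39 mismatches, an identity of 98.4% over the aligned bases (272 bases lay in gaps). GENCODE gives them as protein-coding and RefSeq as pseudogenes. The stretch below shows how close they are, with 3 capitals in each line marking the only bases that differ over 150 bases. The Cwc22 line runs from coding base 26 to 175 and spans 3 exons (chr2:77931463-77936594, minus strand), and the Gm13698 line lies within the single exon (chr2:83955721-83955870, plus strand).
Cwc22: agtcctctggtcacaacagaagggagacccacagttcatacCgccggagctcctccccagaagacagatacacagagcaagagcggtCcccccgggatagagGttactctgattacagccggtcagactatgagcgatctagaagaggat
Gm13698: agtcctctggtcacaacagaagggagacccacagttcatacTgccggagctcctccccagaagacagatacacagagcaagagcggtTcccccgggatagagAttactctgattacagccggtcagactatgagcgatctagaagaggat

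Of all 50-base windows in the annotated transcripts of Cwc22, 18.5% also occurred in transcripts of another gene, most of them in these 7 copies. A read that lies wholly in such a stretch matches several places. Reads with several alignments were set aside in the deposited counts and entered no gene here. Counts of the 7 copies, and the number of copies each animal carried, were not analysed here. The reference genome is that of C57BL/6J, and copies present only in other strains are outside these numbers.

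The pair Magoh and Magohb is the opposite case. Their proteins are known to be nearly identical, but their coding sequences shared 81.0% of bases over 441 aligned positions, with 84 mismatches and no identical run longer than 17 bases. None of the 50-base windows of Magoh occurred in another gene, so a stretch of that length tells the paralogues apart. Over the first 150 bases below, 31 positions differ, marked in capitals. Magoh is shown from coding base 1 to 150 (chr4:107879858-107883070, plus strand, 3 exons) and Magohb from 7 to 156 (chr6:131288144-131293159, minus strand, 3 exons).
Magoh: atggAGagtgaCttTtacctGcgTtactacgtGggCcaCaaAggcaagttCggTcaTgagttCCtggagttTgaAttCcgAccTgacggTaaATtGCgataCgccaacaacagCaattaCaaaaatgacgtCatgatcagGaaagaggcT
Magohb: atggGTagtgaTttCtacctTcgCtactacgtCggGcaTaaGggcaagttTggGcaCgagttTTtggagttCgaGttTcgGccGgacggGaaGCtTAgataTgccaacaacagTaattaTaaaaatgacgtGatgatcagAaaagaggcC

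Reads counted over genes ranged from 8609845 to 34718693 per library, and levels are given as CPM, counts scaled to a common library size with TMM factors. Tbr1 itself was at 155 to 193 CPM in the WT animals and 94.2 to 145 in the KO animals, so it was still counted in every mutant, and since the removed part is not given in the labels this level does not check the genotype. The 10 ganglion cell markers summed to 10870 to 13236 CPM of all gene counts in every library. Markers of other retinal cells were low and uneven, with 8 photoreceptor genes summing to 9.06 to 199 CPM over WT libraries and 20.6 to 707 over KO libraries. Bipolar cell genes (5) summed to 8.59 to 57.9 and 2.05 to 223 CPM, Müller glia genes (5) to 60.6 to 182 and 79.1 to 341, microglia and vessel genes (5) to 6.39 to 59.3 and 1.77 to 36.4, and red cell genes (3, of which Hbb-bs and Hba-a1 were at 0 throughout) to 0.697 to 4.40 and 0.744 to 8.65. The sums of 2 lists did not overlap between genotypes: 5 amacrine cell genes at 226 to 271 CPM in WT and 279 to 337 in KO libraries, and 4 horizontal cell genes at 7.70 to 24.3 and 25.2 to 40.9, with Lhx1 at 0 in every library. Single genes made up most of both sums. Pax6, which ganglion cells also express, was at 220 to 257 CPM in WT and 245 to 300 in KO libraries. These library ranges overlapped. Summed per animal and TMM-scaled, Pax6 did not overlap between the genotypes, as was the case for 5.06% of tested genes. Calb1 was at 7.57 to 21 and 22.7 to 40.3 CPM. Of the other amacrine genes, Gad1 and Tfap2a reached at most 2.34 CPM. Tfap2b reached 16.8 CPM in WT and 27.8 in KO libraries, and Slc6a9 was at 5.06 to 15.8 and 9.78 to 40.3. Of the other horizontal cell genes, Onecut1 reached at most 1.32 CPM and Prox1 at most 7.31. The filter left 2 of 5 bipolar cell genes, 3 of 4 horizontal cell genes and 1 of 3 red cell genes for testing. Every gene of the other lists was tested. No tested marker was called by the edgeR quasi-likelihood test, and the part of the markers in the results was not tested. That test called 40 genes in all, 0.287% of those tested, at a Benjamini-Hochberg adjusted p under 0.05, with 28 lower (0.201%) and 12 higher (0.086%) in KO. Animals of the genotypes did not overlap for 5.06% of tested genes, 2.48% lower and 2.58% higher in KO. The count was 18 without WT animal b, 22 without KO animal a, 17 without KO animal b and 25 without KO animal d.

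Cwc22 was lower in every KO library than in every WT library. The 5 WT libraries gave 214 CPM (animal a), 212 and 251 (animal b), 265 (animal c) and 85.5 (animal d). The 6 KO libraries gave 25.7 and 32.7 CPM (animal a), 10.5 and 32.8 (animal b), 30.5 (animal c) and 34.6 (animal d). WT animals a, b and c lay close together, WT animal d lay well below them, and the KO animals lay lower still without overlap.

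**Figure D1:**
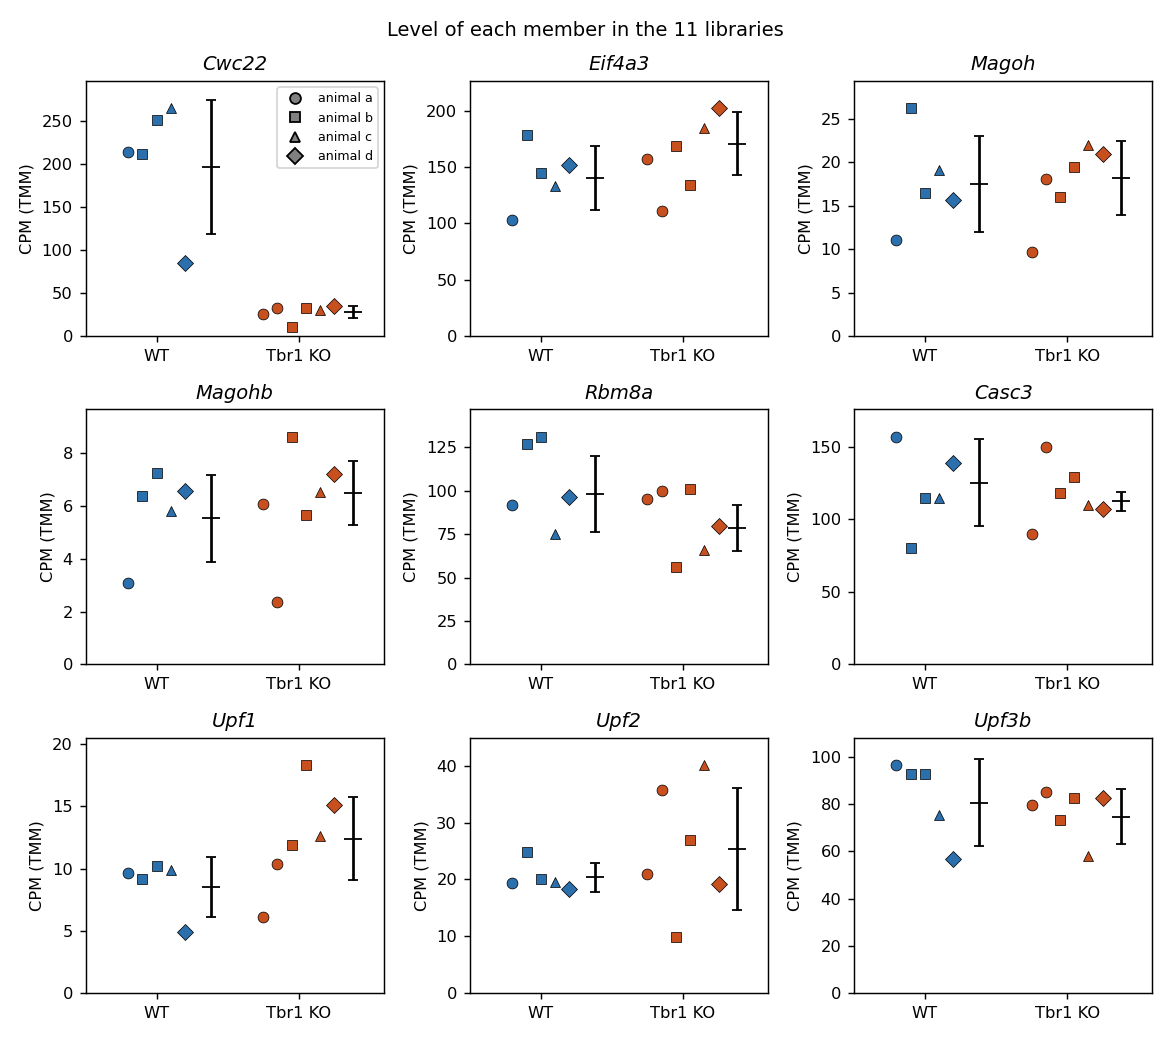
Level of each of the 9 genes (vertical axes, CPM from 0) in the 11 libraries, WT in blue and Tbr1 KO in orange, with marker shapes for animals a to d and a bar for the mean ± SD of the 4 animals. Cwc22 separates the genotypes, with 85.5 CPM as the lowest WT library and 34.6 as the highest KO library, while the other 8 genes overlap.

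Averaged over animals, Cwc22 was at 197 ± 77.4 CPM in WT and 28.0 ± 6.69 CPM in KO (SD, n = 4 per genotype). The WT mean was 7.02 times the KO mean, and the lowest WT animal was 2.48 times the highest KO animal. The fitted log2 fold change, KO minus WT, was -2.81 ± 0.31 (SE). Cwc22 is 1 of the 28 genes (0.201% of those tested) that the edgeR fit called lower in KO, and since this contrast chose it, nothing is read from that call. The fold change was -3.06 without WT animal d. Calb1, named above among the markers, also separated the genotypes over libraries, with higher values in KO. The ganglion cell markers Pou4f2 and Thy1 separated them too, with lower values in KO. Pou4f2 was at 230 to 357 CPM of all gene counts in WT and 122 to 213 in KO libraries. Thy1 was at 379 to 454 and 257 to 364, and the other ganglion cell markers overlapped. In bulk pools, fewer cells with the Cwc22 transcript and less of it per cell cannot be told apart.

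The spread of Cwc22 within a genotype comes from the same animals as the difference that listed it, so it is a description. Among the 4 WT animals the highest level was 3.10 times the lowest, a coefficient of variation (SD over mean) of 39.4%. The median over the 8325 genes at 16 CPM or more in either genotype was 20.4%, and 88.3% of those genes varied less between WT animals than Cwc22 did. Among KO animals its coefficient of variation was 23.9%, against a median of 17.5%.

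Pools of the same animal show how far 2 draws of 100 cells differ. In WT animal b the Cwc22 pools differed 1.18-fold and in KO animal a 1.27-fold, close to the median gene in those pairs (1.30-fold and 1.22-fold). In KO animal b they differed 3.03-fold, at 364 counts in library 3 and 686 in the shallower library 4, and 99.0% of genes differed less between these pools. Upf2 differed 2.64-fold in the same pair and was again lower in library 3. With KO library 3 left out, an alternative chosen after seeing the data, the log2 fold change of Cwc22 was -2.64.

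The helicase Eif4a3, which CWC22 binds, did not follow Cwc22. Its level in WT libraries was 103 (animal a), 178 and 145 (animal b), 133 (animal c) and 152 CPM (animal d). In KO libraries it was 157 and 111 (animal a), 169 and 134 (animal b), 185 (animal c) and 202 CPM (animal d). The genotypes overlapped, although the highest library was a KO library and the lowest a WT library. The means were 140 ± 28.8 and 171 ± 28.0 CPM (SD, n = 4 per genotype). The fitted difference on the log2 scale was 0.29 ± 0.17 (SE), with an edgeR adjusted p of 0.830 (Benjamini-Hochberg over all genes). Its 95% interval, from the quasi-likelihood fit, ran from -0.08 to 0.66. Annotated copies hold 16.5% of its 50-base windows (Gm5576, Gm5580 and Gm8994), and of these Gm8994 had at most 132 counts in any library where Eif4a3 had 1246 to 6449.

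Rbm8a, whose protein locks EIF4A3 on RNA, was at 75.1 to 131 CPM over WT libraries and 56.1 to 101 over KO libraries. Its animal means were 98.1 ± 22.1 and 78.8 ± 13.2 CPM (SD, n = 4 per genotype). Its log2 fold change was -0.32 ± 0.18 (SE), with an edgeR adjusted p of 0.826. The sign was opposite to that of Eif4a3, its binding partner, and neither passed the threshold.

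Magoh was at 11.1 (animal a), 26.2 and 16.4 (animal b), 19.1 (animal c) and 15.6 CPM (animal d) in WT libraries. In KO libraries it was at 9.65 and 18.1 (animal a), 16 and 19.5 (animal b), 22.0 (animal c) and 20.9 CPM (animal d). WT animal a and KO animal a were each the lowest of their genotype, but the letters do not pair mice across genotypes. The ranges of the genotypes nearly coincided. The log2 fold change was 0.06 ± 0.31 (SE), with a 95% interval from -0.62 to 0.73 and an edgeR adjusted p of 0.997, and its sign turned in 6 of 18 alternative fits. Magohb was at 5.52 ± 1.65 CPM in WT and 6.49 ± 1.22 in KO (SD, n = 4 per genotype), and its sign turned with the library number as a replicate block. Magohb made up 24.0% ± 3.82 of the counts of the 2 paralogues in WT animals and 26.5% ± 3.08 in KO animals (SD, n = 4). An annotated pseudogene, Gm44958, overlaps Magohb on the same strand and holds 26.8% of its 50-base windows.

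Casc3, the late-joining subunit, varied more between WT animals than between KO animals. WT animals lay at 88.5 to 158 CPM and KO animals at 107 to 122, so that all KO animals fell inside the WT range. The log2 fold change was -0.16 ± 0.17 (SE), with an edgeR adjusted p of 0.941. Casc3 overlaps Msl1 on the same strand and Gm12359 on the other, so its counts can hold or miss reads of both.

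The NMD helicase Upf1 had the lowest level per length of the 9 genes, with 88 to 481 counts per library. WT libraries gave 9.68 (animal a), 9.16 and 10.2 (animal b), 9.87 (animal c) and 4.88 CPM (animal d). KO libraries gave 6.09 and 10.4 (animal a), 11.9 and 18.3 (animal b), 12.6 (animal c) and 15.1 CPM (animal d). KO animals b, c and d lay above all WT animals and KO animal a lay within the WT range. The log2 fold change was 0.55 ± 0.37 (SE), the largest rise in value among the members, but its 95% interval ran from -0.27 to 1.36 and its edgeR adjusted p was 0.874. WT animal d, the lowest WT animal for Cwc22, was also the lowest WT animal for Upf1, Upf2 and Upf3b. It was not the lowest for Eif4a3, Magoh, Magohb, Rbm8a or Casc3.

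Upf2, the bridging factor, lay on chromosome 2 as well, far from Cwc22 at chr2:5951469-6056703. It was at 18.3 to 24.9 CPM over WT libraries and 9.87 to 40.1 over KO libraries, with both extremes in the KO group. Its coefficient of variation was 12.3% between WT animals and 42.1% between KO animals, and 94.4% of genes varied less between KO animals. Its log2 fold change was 0.32 ± 0.30 (SE), with an edgeR adjusted p of 0.935. The value rested on KO animal c (1 library, 40.1 CPM) and was 0.02 without it. The X-linked gene Upf3b, whose protein binds the junction complex directly, was at 80.6 ± 18.4 CPM in WT and 74.7 ± 11.5 in KO (SD, n = 4 per genotype). Its log2 fold change was -0.11 ± 0.19 (SE), with an edgeR adjusted p of 0.977. The paralogue Upf3a was at 38.3 ± 6.89 and 41.1 ± 4.82 CPM.

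None of the 8 function-listed genes was called in the edgeR test or in DESeq2. The background was 0.287% of all genes in the edgeR test and 156 of 13957 genes in DESeq2. None reached an unadjusted p under 0.05 in edgeR, which 7.09% of all tested genes did, and none separated the genotypes without overlap, where the share over all tested genes was 5.06%. For 8 genes, counts of 0 lie near these shares. Their median log2 fold change was 0.14, with 5 positive and 3 negative, beside a median of -0.00 over all tested genes. The upper and lower 95% bounds for Eif4a3, Magoh, Rbm8a, Casc3, Upf2 and Upf3b all stayed within a 2-fold change, from -0.72 (Rbm8a) to 0.97 (Upf2). Those of Magohb and Upf1 reached 1.25 and 1.36.

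**Figure D2:**
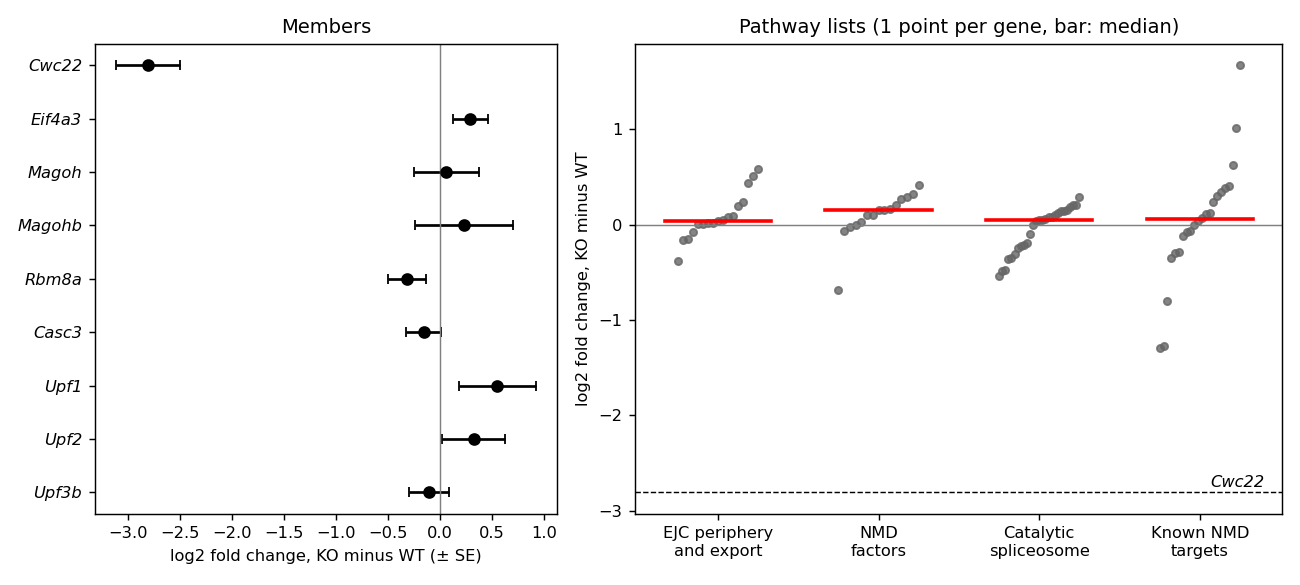
Left, log2 fold change (KO minus WT) with its standard error for the 9 members. Right, the same value for every tested gene of 4 pathway lists, with red bars at the medians and a dashed line at the value of Cwc22 (-2.81), below every gene of the lists.

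Levels between genes were compared per kilobase of annotated exons, as CPM per kb. In WT animals Eif4a3 was highest at 66.0 ± 13.6 CPM per kb (SD, n = 4) and its animals did not overlap those of Rbm8a, the next gene at 30.5 ± 6.89. Rbm8a, Casc3, Cwc22 (28.8 ± 11.3), Magoh and Upf3b (20.2 ± 4.61) followed, and each overlapped the next. A gap without overlap then separated Upf3b from Upf2 (3.71 ± 0.455), Magohb (3.21 ± 0.960) and Upf1 (1.84 ± 0.520), which overlapped in that order. In KO animals Cwc22 stood at 4.11 ± 0.981 CPM per kb, between Upf2 and Magohb and overlapping both, while the order of the upper genes changed only by an exchange of Rbm8a and Casc3. The level of Cwc22 per kb depends on the length used, which was 6822 bases for all its exons. Over the 3471 bases of its main transcript it stood at 56.7 ± 22.3 in WT and 8.07 ± 1.93 in KO. The other genes kept the length of all their exons, so these values give Cwc22 no new place in the order above.

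Wider gene lists around the complex held no called gene, and at a background of 0.287% few calls would fall in lists of this size. Of 17 tested genes of the outer junction complex and of mRNA export, 0 were called, and the median log2 fold change was 0.04. The abundant members Srrm2, Rnps1, Pnn and Ncbp2, which take part in splicing activation or cap binding, had values between -0.16 and 0.01. Of 15 NMD factors, 0 were called, with a median of 0.15. The kinase Smg1 stood at 0.29 ± 0.17 (log2 fold change ± SE) and the release factor Gspt1 at 0.03 ± 0.15. Of 27 genes of the catalytic spliceosome that CWC22 joins, 0 were called, with a median of 0.05. Its GTPase Eftud2 stood at 0.29 ± 0.17, Snw1 at 0.08 ± 0.16, Plrg1 at 0.04 ± 0.14 and Bcas2 at 0.21 ± 0.15. In the edgeR test, 2 genes of the outer complex and export list, 1 NMD factor and 1 spliceosome gene had an unadjusted p under 0.05, against 7.09% of all tested genes.

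Transcripts known as NMD targets were measured as gene totals, which do not separate isoforms. Of 22 tested, 0 were called and 3 had an unadjusted p under 0.05 in edgeR (0.287% and 7.09% over all tested genes), with a median log2 fold change of 0.06. The SR protein gene Srsf3 was at 183 ± 37.5 CPM in WT and 193 ± 38.2 in KO (SD, n = 4 per genotype), Srsf7 at 98.1 ± 19.7 and 120 ± 5.26, and Tra2b at 153 ± 9.81 and 157 ± 18.8.

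A few list members separated the genotypes without overlap and are named after their values were seen. Over all tested genes 5.06% did so. The cap-binding gene Ncbp1 was at 29.3 to 45.2 CPM in WT animals and 53.1 to 57.2 in KO animals. Thoc7, of the export complex THO, was at 126 to 144 and 82.1 to 120 CPM. Prpf19, a ubiquitin ligase of the spliceosome, was at 72.4 to 89.4 and 48.3 to 67.5 CPM. Their edgeR adjusted p was 0.469 to 0.549, so none passed. Among NMD targets the noncoding Snhg1 was at 6.92 to 15.9 CPM in WT and 3.53 to 4.61 in KO, the stress gene Gadd45g at 0.202 to 9.83 and 12.5 to 31.2, and the cell cycle inhibitor Cdkn1a at 227 to 306 and 320 to 354. Their edgeR adjusted p was 0.490 to 0.683. These directions were mixed, with 3 genes higher and 3 lower in KO. For Smg8, an NMD kinase regulator, the log2 fold change was -0.69 ± 0.28 (SE), with overlapping genotypes and an edgeR adjusted p of 0.630.

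Cwc22 lies on the same chromosome as the targeted gene, 16.1 Mb from Tbr1. Genes near it were therefore listed by position. Within 5 Mb on either side, 36 other genes were tested, 0 were called by edgeR (background 0.287%) and 0 separated the genotypes without overlap (background 5.06%). Their median log2 fold change was 0.05. The nearest tested neighbours were Zfp385b, at 9.21 ± 4.48 CPM in WT and 20.9 ± 5.41 in KO (SD, n = 4 per genotype), and the ubiquitin-conjugating enzyme gene Ube2e3, at 174 ± 36.0 and 144 ± 23.9. The log2 fold change of Zfp385b was 1.18 ± 0.37 (SE), with an edgeR adjusted p of 0.405, and its sign was opposite to that of Cwc22. Of the 67 genes tested between Tbr1 and Cwc22, 0 were called and 3 (4.48%) did not overlap, all 3 higher in KO.

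**Figure D3:**
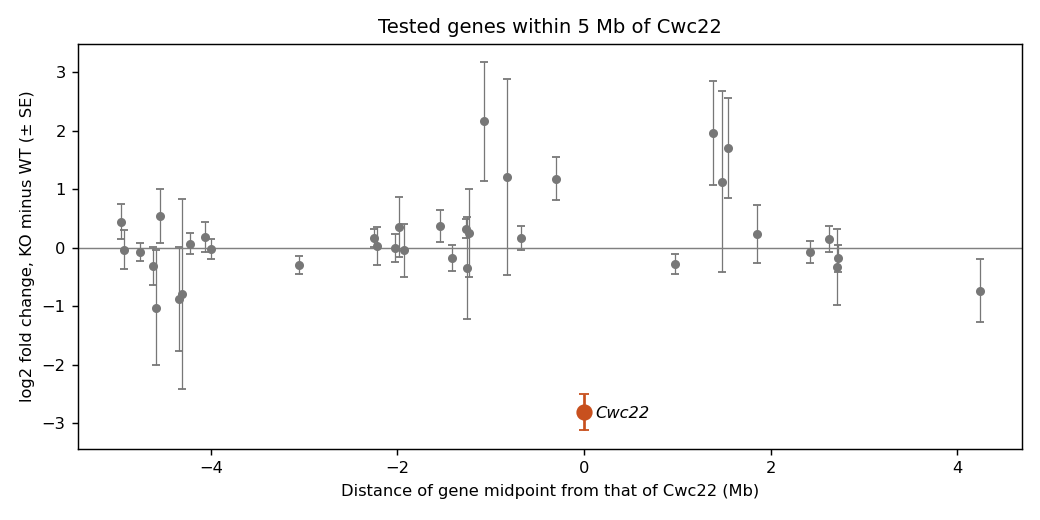
Log2 fold change (KO minus WT) with its standard error for the 37 tested genes within 5 Mb of Cwc22, against the distance of their midpoints from that of Cwc22 in Mb. Cwc22 (orange, -2.81) lies below the other 36 genes (grey), whose values run from -1.02 to 2.16.

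The genes whose profile over the 8 animals was most like that of Cwc22 were ranked by the root mean square difference of log2(CPM + 0.5) after subtracting each gene's mean. Among 8324 genes the median difference was 1.46. The smallest were 0.50 for the myelin protein gene Pmp22 and for the cytokine gene Il1f9, followed by Cap1 (0.64), Jam2 (0.67) and Inafm2 (0.71). Likeness to Cwc22 selects genes lower in KO, so nothing is read from their direction or from WT animal d, which entered the choice. Pmp22, Il1f9 and Inafm2 reached 16 CPM in WT only. Il1f9 was at 9.20 CPM in WT animal d and 14.4 to 23.8 in the other WT animals. Inafm2 was at 7.03 CPM there and 22.9 to 36.5 in the others. Cap1 and Jam2 were highest in WT animal d, at 268 and 619 CPM.

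**Figure D4:**
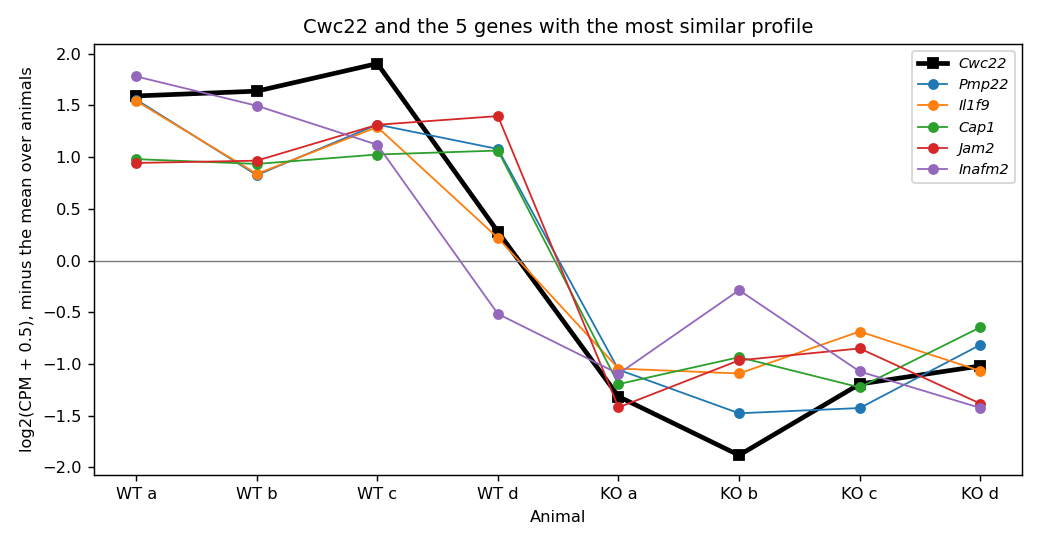
Profiles of Cwc22 (black) and the 5 genes nearest to it over the 8 animals, as log2(CPM + 0.5) minus the gene's own mean. All 6 have a lower mean in KO, and only Cwc22, Il1f9 and Inafm2 are lower in WT animal d than in the other WT animals.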

How the data were processed

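For each library the authors deposited unnormalised read counts by gene symbol. The submitters' processing notes name HTSeq 0.6.1, TopHat2 2.0.10, Trimmomatic 0.32 and the build mm10 (GRCm38). For the annotation and the strand setting, the choice was not given in the sources used here. cDNA was made by Smart-seq2 and tagged with Nextera XT, per the labels' protocols. These kits mark neither strand nor molecules, so overlapping genes cannot be separated by strand. Nothing says that the 4 animals of a group came from separate litters. Lines that name no gene (36.1% to 39.9% of reads) were left out. Counts were summed per animal, filtered with filterByExpr, TMM-scaled and compared in edgeR 4.0.16 (R 4.3.3) by its robust quasi-likelihood fit. P-values were adjusted over 13957 genes by Benjamini-Hochberg, and the fit was tested on simulated data. Standard errors are the log2 fold change over the square root of F. DESeq2 1.42.0 and limma 3.58.1 served as alternatives, as did other scalings, filters, units and leaving out each animal. Positions and transcript sequences came from GENCODE M21 (GRCm38), which matched 95.5% of symbols, and pseudogene status from RefSeq (GRCm38.p6). Named genes are the members, their paralogues, up to 4 genes per list (called first, then the most abundant), the neighbours of Cwc22 and the 5 most similar profiles, unless said otherwise; 1 named gene is not reported here. Members and lists were chosen with earlier results of these data known.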

Additional observations from a re-analysis of the deposited data

Results flagged for a closer look

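The Upf1 level of WT animal d, 4.90 CPM, stood apart from the other 3 WT animals at 9.43 to 9.90 CPM. The same check on the gap between an extreme animal and its nearest neighbour marked 4 further values among 80 groups of 4 animals, where chance marks about 1 in 20 groups. Srrm2 was at 497 CPM in WT animal a against 451 to 455 in the others. Bcas2 was at 113 CPM in KO animal b against 123 to 124. Plrg1 was at 89.9 CPM in KO animal d against 112 to 115. Il1f9 was at 4.68 CPM in KO animal c against 3.41 to 3.54.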

How the results depend on the processing

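The log2 fold change of Cwc22 stayed between -3.06 and -2.63 over 18 alternatives, which was also its range when each animal was left out in turn. The 8 other members were called in 0 of 144 alternative values, and 8 of those values changed sign. Magoh, near 0 in the report, was at -0.01 in limma voom with the animal as a block, -0.05 with the library number as a replicate block, -0.07 with the first library of each animal only, -0.10 without WT animal a, -0.04 without KO animal c and -0.02 without KO animal d (-0.10 to 0.25 over all animals left out). Magohb was at -0.04 with the replicate block and Upf3b at 0.00 without KO animal c (-0.24 to 0.00). The cause was not tested. The count of called genes was 156 in DESeq2, 84 with each library as a replicate, 76 in voom and 17 to 44 when 1 animal was left out. With the replicate block it was 43, and Cwc22 was at -2.95. Libraries with the same number correlated at -0.113 to 0.078 (deviations from the group mean, 7744 genes), and 2 of 5 WT libraries correlated best with their own number, so the numbers were not taken as pairs. Depth limits Upf1 and Magohb most, with as few as 88 and 37 counts in a library.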
